A study of Rattus norvegicus with 28 samples.

Results

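Isolated regions are accessible chromatin regions of the rat dorsal root ganglion (DRG) that stood alone on the chromosome. They were chosen from position only, as consensus ATAC-seq regions on chromosomes 1 to 20 that were 251 to 1499 bp wide and had no other region of the consensus set within 100000 bp on either side, measured edge to edge. This selected 1699 of 56810 regions (2.99%), or 3.38% of the 50324 autosomal regions of that width. The remaining 48625 autosomal regions of that width are called the other regions. The rule itself uses position and width, but the consensus set holds only regions that were called as peaks in enough samples of a group.

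ATAC-seq libraries came from the ipsilateral lumbar (L4 to L6) DRGs of male Sprague-Dawley rats aged 12 weeks, with 1 rat per library. The CCI group (6 libraries) was taken 14 days after chronic constriction injury, in which the sciatic nerve is loosely tied, and serves as a model of neuropathic pain. The CFA group (6 libraries) was taken 48 h after an injection of complete Freund's adjuvant into the hind paw, which causes a local inflammation, and the naïve group (3 libraries) had neither procedure. Each pain model was compared with the same 3 naïve libraries in a table of its own, to ask where accessibility differs from the uninjured state, so effects of surgery or injection as such cannot be told apart from those of the pain state. In the 2 CFA RNA-seq libraries of the series (10.5 M and 28.8 M counts), 8 of 9 sensory neuron markers could be paired with an identifier and were found at 348 to 11600 CPM, a count scaled to the library total. The Schwann cell marker Mbp was at 2090 and 1980 CPM, and no marker of satellite glia, muscle or immune cells could be paired.

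ATAC-seq maps accessible DNA with a transposase that inserts sequencing adapters where nucleosomes leave the DNA exposed. Promoters, enhancers and insulators are accessible in this sense, and they tend to lie close together around active genes, while long gene-poor stretches of a chromosome hold few of them. The DRG houses the cell bodies of sensory neurons together with satellite glia, Schwann cells, vascular cells and resident immune cells, so a ganglion library averages over all of these. A higher value can stand for more cells in which a region is open or for a more open region in the same cells, and these cannot be told apart here.

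Values are log2 normalized coverage, in which a difference of 1 is a doubling of coverage, and coordinates are those of the rn6 rat genome. Each region was fitted by limma in each table, and a region is called gained or lost where its unadjusted p fell below 0.001, the threshold of the study, with the value in the pain model higher or lower than in naïve. In each table all libraries share nearly the same distribution of values, so a level is a place in that distribution rather than a depth. The libraries differed in contrast. When the distinct values of a library are numbered upwards from its lowest, the number at the 90th percentile of regions divided by that at the 25th percentile, here called the signal ratio, is low where weak regions lie close to strong ones. It was 7.97 to 10.2 in the naïve libraries, 5.24 to 7.77 in CCI and 8.38 to 10.2 in CFA, so that it separated CCI from naïve but not CFA from naïve. CCI replicates 3 to 6 were sequenced in 1 run and all other libraries in 2.

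Isolated regions were unevenly spread over the chromosomes, and they were commonest where accessible regions were sparse. The distance rule itself favours this, so it is a property of the selection rather than a separate finding. On chromosome 13, 104 regions or 6.38% of those of the width class were isolated, followed by chromosome 11 with 83 regions (5.73%) and chromosome 14 with 96 (4.91%). The lowest shares were 0.85% on chromosome 12 (12 regions), 1.69% on chromosome 10 (52) and 1.94% on chromosome 19 (30). Chromosome 13 had the fewest regions of any width per Mb (16.1), whereas chromosomes 10 and 12 had 30.5 and 29.2. By number, chromosomes 2 (189) and 1 (159) held the most.

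**Figure D1:**
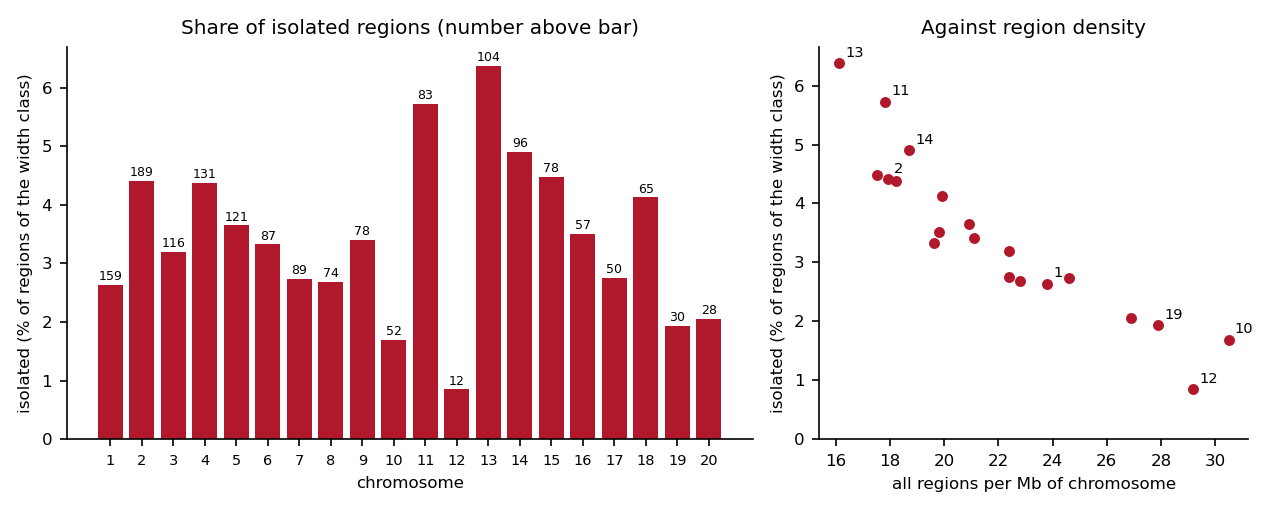
Left, percentage of the autosomal regions of the width class that were isolated on each chromosome, with the number of isolated regions above each bar. Right, the same percentage against the number of all regions per Mb, 1 point per chromosome, a relation that the distance rule itself favours. Chromosome 13, with 16.1 regions per Mb, has the highest share (6.38%), and chromosomes 10 and 12, with 30.5 and 29.2 regions per Mb, have the lowest shares.

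Isolated regions often followed one another. Of the 1699, 1004 (59.1%) lay in runs of at least 2 isolated regions with no other region between them, and 695 stood between regions that were not isolated. The longest run held 16 isolated regions over 5.07 Mb of chromosome 13 (chr13:62543766-67612641), and runs of 8 lay at chr2:174894312-177206449 and chr7:55260538-57180531. The nearest other region was at a median distance of 156597 bp, and 521 isolated regions (30.7%) were more than 200000 bp and 50 (2.94%) more than 500000 bp from it. On the farther side the median distance was 305202 bp. The 5 most isolated regions were chr9:108169306-108169647 (nearest region at 1083476 bp), chr5:45372212-45372571 (1053460 bp), chr13:13323593-13323982 (957884 bp), chr1:121377679-121378886 (884530 bp) and chr4:102137883-102138808 (836996 bp). Only 4 isolated regions were the first or last region of their chromosome.

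At the distance limit, the nearest members were chr7:80502183-80502582 and chr7:80602593-80603162, which lie 100011 bp from each other, and the nearest regions outside it were chr17:57193846-57194684 (99986 bp) and chr3:140275073-140275558 (99972 bp). The pair on chromosome 7 had naïve levels of 4.41 ± 0.219 and 4.86 ± 0.376 (SD, n = 3, CCI table), and the regions outside the limit 6.45 ± 0.0539 and 4.92 ± 0.274. The narrowest members, chr17:48929743-48929994 and chr19:44345989-44346240, were 251 bp wide with naïve levels of 3.91 ± 0.325 and 4.46 ± 0.181. Just under the width limit, chr15:17395996-17396245 and chr15:91271542-91271791 (249 bp) had 3.4 ± 1.58 and 4.23 ± 0.125. The widest members were chr2:27500100-27501598 (1498 bp, 8.92 ± 0.0965) and chr11:54404049-54405530 (1481 bp, 8.19 ± 0.0829), and just over the limit lay chr2:83226530-83228040 and chr2:223321543-223323053 (1510 bp), with 7.09 ± 0.236 and 8.12 ± 0.176.

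Isolated regions were narrower and weaker than other regions in naïve ganglia. Their median width was 481 bp against 569 bp. The mean of the 3 naïve libraries had a median of 4.72 over the isolated regions, with a range from 2.7 to 9.18, against 5.53 over the other regions in the CCI table, and 4.92 against 5.8 in the CFA table. When all 56810 regions were divided into quartiles of naïve level, 900 isolated regions (53.0%) fell in the lowest quartile and 144 (8.48%) in the highest, compared with 20.5% and 25.2% of the other regions. The set holds only regions that the peak caller found in enough samples, so weaker sites, isolated or not, are not in it.

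The 3 strongest isolated regions by naïve level were all over 1000 bp wide, and none of them was called in either model. On chromosome 2, chr2:128001559-128002769 (1210 bp) had 9.36, 9.09 and 9.1 in the naïve libraries of the CCI table and 8.89 to 9.09 in CCI, with a median of 8.96. Each CCI library was below each naïve library, and the difference of -0.21 was not called (limma p = 0.173). The region chr4:27174866-27175984 (1118 bp) had 9.2, 9.15 and 9.08 in naïve and 8.73 to 9.03 in CCI (median 8.86, p = 0.0925). The third, chr2:27500100-27501598 (1498 bp), had 8.82, 9.02 and 8.92 in naïve and 8.64 to 9.12 in CCI (median 8.98), with overlapping groups. In CFA chr2:128001559-128002769 stood at 9.44 to 9.62 against 9.92, 9.66 and 9.67 in naïve, a difference of -0.21 without overlap that was not called (p = 0.0782), and chr4:27174866-27175984 at 9.4 to 9.68 against 9.78, 9.72 and 9.66, with overlap (-0.14, p = 0.238). The last of the 3 stood at 9.61 to 9.71 against 9.42, 9.6 and 9.51 in naïve, a difference of 0.14 that was not called (p = 0.181) although the groups did not overlap.

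Libraries of the same group differed more at isolated regions than at other regions. The median SD between the 3 naïve libraries was 0.267 at isolated and 0.194 at other regions (CCI table). Between the 6 CCI libraries it was 0.393 against 0.315, and between the 6 CFA libraries 0.311 against 0.233. The difference was smaller at a matched level. Within quartiles of the mean level over all 9 libraries of a table, a division chosen after the data were seen, the median CFA SD was 0.356 against 0.337 in the lowest quartile, 0.295 against 0.276 in the next, 0.236 against 0.217 in the third and 0.153 against 0.136 in the highest. The isolated regions kept the larger SD in each quartile, also among the naïve and CCI libraries.

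**Figure D2:**
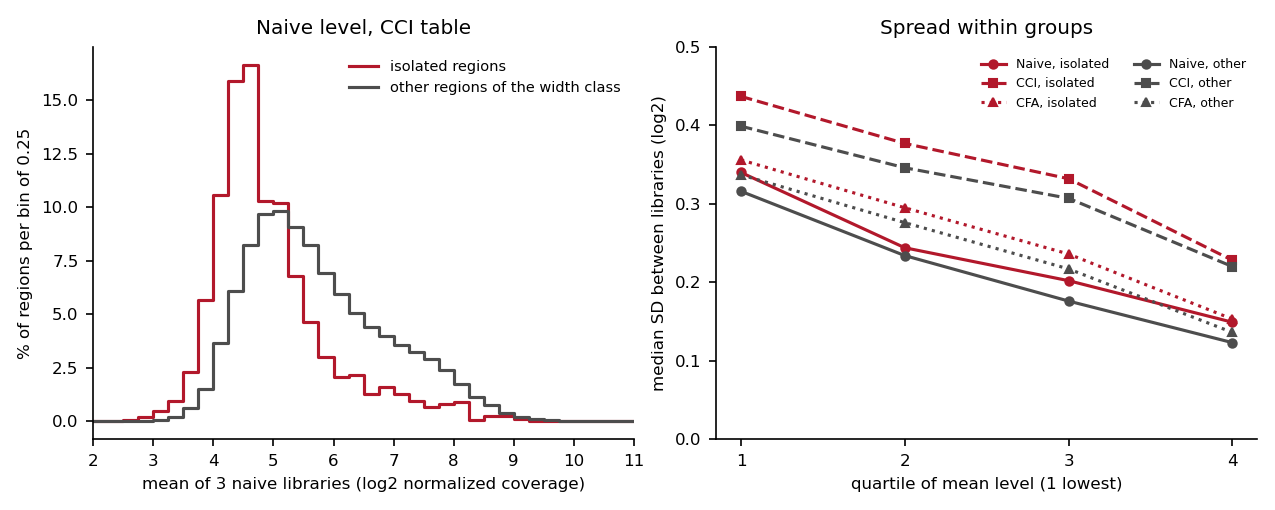
Left, distribution of the mean log2 normalized coverage of the 3 naïve libraries (CCI table) over isolated regions (red) and other autosomal regions of the same width class (grey), as the percentage of regions per bin of 0.25. Right, median SD between libraries of a group in each quartile of mean level, for naïve (circles, solid), CCI (squares, dashed) and CFA (triangles, dotted). Isolated regions peak at lower levels, and their median SD is the larger in all 4 quartiles of each group.

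A few isolated regions set single libraries far apart. The region chr4:24943789-24944343 (554 bp) had the largest SD among the CCI libraries, 2.62. It stood at 5.61 and 6.88 in CCI replicates 1 and 2 and at 1.84, 0.51, 1.63 and 1.23 in replicates 3 to 6, against 6.55, 4.95 and 5.34 in naïve and 4.65 to 6.07 (median 5.38) in CFA. The 4 low libraries are those sequenced in 1 run, and the part of the run in this split was not tested. The region chr20:477582-477953 (371 bp, SD 2.24) was at 0.732, 0.366 and 0.222 in CCI replicates 3, 5 and 6 and at 4.18, 4.88 and 4.43 in replicates 1, 2 and 4, so here 1 of the libraries with 1 run lay with those with 2. Its naïve values were 4.02, 3.43 and 3.96. At chr9:20263964-20264603 (639 bp, SD 1.62) only CCI replicate 3 was near 0 (0.732), while the other CCI libraries had 4.28 to 4.95 and naïve 6.46, 5.85 and 5.82. The groups did not overlap there in either model, since the CFA libraries had 5.06 to 5.97 against 6.83, 6.15 and 6.12 in naïve, but the region was not called (CCI log2 fold change -2.05, p = 0.0182, CFA -0.94, p = 0.00191).

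Among the CFA libraries such values were rarer. The largest SD was 1.29 at chr2:131377273-131377538 (265 bp), where CFA a had 1.35 and the other CFA libraries 3.73 to 4.86. At chr6:17019811-17020420 (609 bp, SD 1.03) replicate 4 had 2.41 against 4.07 to 5.15 in the others, and at chr14:55226210-55226482 (272 bp, SD 0.947) the same replicate had 1.89 against 3.63 to 4.5. The naïve libraries of these regions lay between 4.05 and 5.46 in the CFA table. In all 15 libraries no more than 3 isolated regions had a value below 2.

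After CCI, isolated regions were on balance more accessible than in naïve, in contrast to other regions. The CCI minus naïve log2 fold change had a median of 0.09 over isolated regions, -0.04 over the other regions and -0.04 over all regions, and 61.3% of isolated regions lay above 0 against 44.5% of all regions. At the threshold of the study 19 isolated regions (1.12%) were gained, beside 0.75% of all regions, and 2 (0.118%) were lost, beside 0.16% of all. In either direction these were 21 isolated regions (1.24%), beside 0.91% of all regions. With an intensity trend in limma the order turned, with 1.24% of isolated and 1.68% of all regions gained. No isolated region reached a Benjamini-Hochberg adjusted p of 0.05 in limma (0.0158% of all regions did), and the smallest adjusted p was 0.0689. At an unadjusted p below 0.05, 248 isolated regions (14.6%) lay above naïve and 58 (3.41%) below, where 8.59% and 7.45% of all regions did. All 6 CCI libraries exceeded all 3 naïve libraries at 91 isolated regions (5.36%, against 3.85% of all regions), and the reverse held at 33 (1.94%, against 5.26%).

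The sign of this shift depended on whether the signal ratio was in the model. The mean over the isolated regions was 4.92, 5.03 and 4.91 in the naïve libraries and 4.95 to 5.2 in the CCI libraries, and the groups overlapped. The library medians over the isolated regions averaged 4.953 in CCI (4.805 to 5.052) and 4.776 in naïve (4.731 to 4.866), and overlapped too. Their pooled SD was 0.0948, which is a spread of library medians and not of the median fold change of 0.09. The CCI library with the lowest signal ratio, replicate 3 (5.24), had the highest mean over isolated regions (5.2), and the CCI library with the highest ratio, replicate 5 (7.77), had the lowest mean (4.95). The mean over the other regions differed by less, from 5.74 to 5.75. With the signal ratio as a covariate the median fold change of the isolated regions was -0.06, the opposite sign, and no isolated region was gained and 1 was lost, where 0.0704% and 0.0317% of all regions were called. The signal ratio and the group do not overlap, so that their parts cannot be told apart. Using only the libraries sequenced in 2 runs, the median was 0.09, and 3 isolated regions (0.177%) were gained and none lost, beside 0.157% and 0.0669% of all regions. With single libraries left out, 8 isolated regions (0.471%, beside 0.287% of all) were gained in the absence of naïve replicate 1, 10 (0.589%, beside 0.334%) in that of naïve replicate 3 and 45 (2.65%, beside 1.29%) in that of CCI replicate 1, with a median fold change from 0.07 to 0.14 over all such fits.

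**Figure D3:**
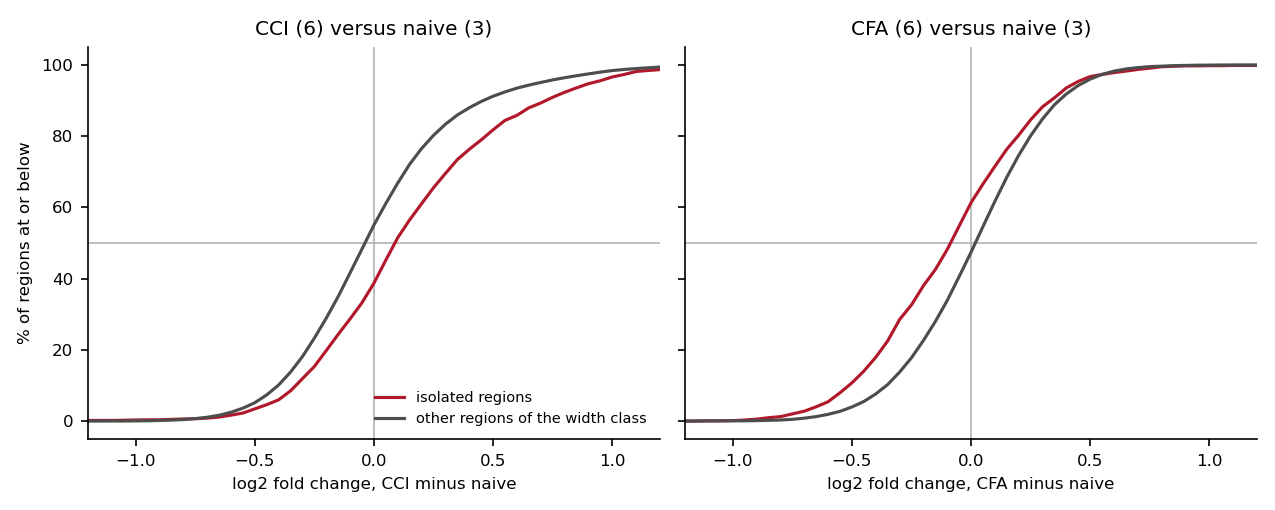
Percentage of regions with a log2 fold change (pain minus naïve) at or below the value on the x axis, for isolated regions (red) and other autosomal regions of the same width class (grey), in CCI (left) and CFA (right). The vertical line marks no difference and the horizontal line the median. In CCI the isolated regions lie to the right of the others, with a median of 0.09 that turns negative with the signal ratio as a covariate, and in CFA they lie to the left, with a median of -0.08.

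The CCI shift was not uniform among isolated regions. By quartile of mean level, the median fold change was 0.09 in the lowest quartile (892 regions), 0.14 in the next (442) and 0.12 in the third (221), but -0.09 in the highest (144), while the other regions had -0.01, -0.03, -0.04 and -0.06. Of the 19 gained regions 15 fell in the lowest quartile (1.68% of its isolated regions) and none in the highest. Among other regions the share gained was also largest in the lowest quartile, 1.34% against 0.531% in the highest. The placement is therefore not particular to isolated regions. The median also differed with distance. It was 0.07 for the 1178 isolated regions whose nearest region was within 200000 bp and 0.16 for the 521 beyond it, of which 12.4% and 19.6% had p below 0.05 above naïve. At the threshold of the study 0.679% and 2.11% of them were gained. Other regions had 1.01% gained within 1000 bp of the nearest region, 1.08% to 5000 bp, 0.539% to 20000 bp, 0.511% to 50000 bp and 0.992% to 100000 bp. A gained share near 1% is therefore not particular to isolated regions. By chromosome the isolated regions had a median above 0 on 18 of 20 chromosomes, the exceptions being chromosomes 12 and 19. These medians come from the same libraries and are not independent. In the run of 16 isolated regions on chromosome 13, 14 lay above 0 and 2 below with a median of 0.36, and 1 was gained.

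The 19 gained regions had log2 fold changes of 0.75 to 1.58 with a median of 1.26, started from naïve levels of 3.03 to 5.38 and lay on 11 chromosomes. In each of them the groups did not overlap, but the regions were selected on these same libraries. Without overlap, leaving out 1 library could not change a sign, and none changed in the 9 such fits. Only 4 regions stayed below 0.001 in every such fit. These 4 were chr13:10820032-10820423, chr1:233774309-233774935, chr5:90040367-90041217 and chr11:1269991-1270529. In CFA 18 of the 19 regions lay above 0 and 1 below, with a median log2 fold change of 0.38, where 50.8% of all regions lay above 0. The naïve libraries are the same in both comparisons, so a low naïve value raises both.

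The region with the smallest p, chr13:10820032-10820423 (391 bp), was also the one with the largest fold change among the gained. It lies 298842 bp and 424838 bp from its neighbouring regions. Its value was 3.14, 3.19 and 2.82 in the naïve libraries and 3.93 to 4.99 in CCI (median 4.67). Every CCI library was above every naïve library, with a log2 fold change of 1.58 (SE 0.224), a limma p of 1.21e-05 and an adjusted p of 0.0689. The exact permutation test over libraries gave its smallest possible p, 0.0119, but the region was selected on these same libraries.

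At chr1:233774309-233774935 (626 bp) naïve was at 4.26, 3.91 and 4.18 and CCI at 4.99 to 5.34 (median 5.25). The groups did not overlap, with a fold change of 1.08 (SE 0.161, limma p = 2.02e-05, adjusted p = 0.0761). The same region in CFA ranged from 3.84 to 5.15 around naïve values of 4.43, 4.09 and 4.37, and overlapped with them (log2 fold change 0.07, limma p = 0.793). At chr5:90040367-90041217 (850 bp) naïve was at 4.3, 4.25 and 3.96 and CCI at 4.95 to 5.73 (median 5.53), a difference of 1.26 (SE 0.195, limma p = 2.82e-05, adjusted p = 0.0761). Its CFA values, 4.4 to 5.24, overlapped with naïve (4.5, 4.43 and 4.16) with a difference of 0.40 (p = 0.0457).

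Among the other gained regions, at chr1:65251569-65252034 (465 bp) naïve was at 3.6, 4.18 and 4.04 and CCI at 4.67 to 5.46 (median 5.05), a difference of 1.13 (SE 0.211, limma p = 0.00016), which stayed below 0.001 in 8 of 9 fits that left out a library. The widest gained region, chr3:134259470-134260669 (1199 bp, named after its values were seen), had the highest naïve level of the 19, 5.38 ± 0.194, and 6.62 ± 0.51 in CCI (SD, n = 6), while CFA had 5.68 ± 0.349 against 5.63 ± 0.211 in naïve. On chromosome 13, chr13:63761293-63761714, also named after its values were seen, is the gained member of the run of 16, with 3.07 ± 0.397 in naïve and 4.53 ± 0.523 in CCI.

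Both lost regions were narrow. At chr5:91132242-91132516 (274 bp) naïve was at 5.89, 5.76 and 6.12 and CCI at 4.67 to 5.37 (median 5.08), with no overlap and a difference of -0.86 (SE 0.195, limma p = 0.000813, adjusted p = 0.107). At chr1:263054781-263055087 (306 bp), whose neighbour on 1 side is 1024815 bp away, naïve was at 5.5, 5.04 and 5.37 and CCI at 3.73 to 4.67 (median 4.34), a difference of -1.03 (SE 0.238, limma p = 0.000929, adjusted p = 0.109). In CFA the groups overlapped at both regions. The first had 5.19 to 6.56 against 6.05 to 6.46 in naïve, a log2 fold change of -0.39. The second had 5.32 to 6.09 against 5.77, 5.25 and 5.62 in naïve, a log2 fold change of 0.13.

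After CFA, isolated regions were on balance less accessible than in naïve. The median CFA minus naïve log2 fold change was -0.08 over isolated regions, 0.02 over the other regions and 0.01 over all regions, and 61.3% of isolated regions lay below 0 against 49.2% of all. At the threshold of the study 14 isolated regions (0.824%) were lost, beside 0.556% of all regions, and 4 (0.235%) were gained, beside 0.565%. In either direction the share was 1.06% of isolated regions and 1.12% of all regions. At an unadjusted p below 0.05, 252 (14.8%) lay below naïve and 80 (4.71%) above, where 9.45% and 9.5% of all regions did. All 6 CFA libraries were below all 3 naïve libraries at 129 isolated regions (7.59%, against 5.65% of all) and above them at 24 (1.41%, against 5.39%). No region of the whole set, isolated or not, had an adjusted p below 0.05 in limma, and the smallest among isolated regions was 0.0858.

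The mean over the isolated regions was 5.17, 5.27 and 5.15 in the naïve libraries of the CFA table and 5.04 to 5.21 in the CFA libraries, so that the groups overlapped on this mean. With the signal ratio as a covariate the median fold change was -0.09. The ratio averaged 9.07 in CFA and 9.09 in naïve, so this covariate could hardly move the value and does not test the shift. Without the covariate, the median fold change stayed below 0 when any single library was left out. It ranged from -0.11 without CFA replicate 6 to -0.04 without naïve replicate 2. The isolated median was below 0 and below that of the other regions on 20 of 20 chromosomes. It ranged from -0.27 on chromosome 19 to -0.02 on chromosome 13, while the other regions ranged from -0.01 to 0.08. All chromosomes were measured in the same libraries, so these 20 medians are not independent. The number of lost regions moved more. It was 4 without naïve replicate 2 (0.235%, beside 0.264% of all regions), so that the excess of losses over all regions was not seen there. It was 8 (0.471%) when either naïve replicate 1 or CFA replicate 5 was left out, beside 0.181% and 0.303% of all regions.

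The CFA shift was larger in stronger isolated regions and in those over 1000 bp wide. By quartile of mean level the isolated medians were -0.06 (1005 regions), -0.09 (382), -0.12 (186) and -0.23 (126), where the other regions had 0.01, 0.01, 0.02 and 0.02. In the highest quartile 39.7% of isolated regions had p below 0.05 below naïve, compared with 11.8% of other regions, and 27.4% against 8.83% in the third quartile. By width, the isolated medians were -0.08 up to 350 bp, -0.04 up to 500 bp, -0.08 up to 750 bp, -0.12 up to 1000 bp and -0.28 above, so that they did not fall steadily over the narrow classes, while the other regions over 1000 bp had -0.05. Of the 139 isolated regions over 1000 bp, 59 (42.4%) had p below 0.05 below naïve and 1 (0.719%) above, against 16.1% and 8.58% of the other regions of that width.

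These 139 wide isolated regions are the width class with the largest CFA shift in these same libraries. Their library means are therefore a description and no separate support for the shift. In this class the groups separated in their means, whereas over all isolated regions they overlapped. The naïve libraries had a mean of 7.32, 7.36 and 7.21 and the CFA libraries 6.91 to 7.12, so that every CFA library lay below every naïve library. The other regions over 1000 bp also had the lower means in CFA, 7.8 to 7.83 against 7.86 to 7.88, without overlap but with a smaller gap. Across the fits that left out 1 library the median fold change of the wide isolated regions ranged from -0.30 to -0.25. In CCI the same 139 regions had 6.68 to 6.97 against 6.89, 6.93 and 6.79 in naïve, with overlapping groups and a median fold change of -0.09, close to the -0.08 of other wide regions.

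The decrease with distance began before the limit that defines isolation. Among other regions the median CFA fold change was 0.02 where the nearest region lay within 1000 bp, 0.07 from 1000 to 5000 bp, 0.02 to 20000 bp, -0.04 to 50000 bp and -0.08 to 100000 bp. Isolated regions had -0.08 up to 200000 bp and -0.08 beyond. The value of the isolated regions is therefore shared by regions at 50000 to 100000 bp and is not particular to the limit of 100000 bp. In CCI the other regions had -0.08, -0.01, -0.04, -0.05 and -0.03 over the same classes, and only the isolated classes lay above 0.

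**Figure D4:**
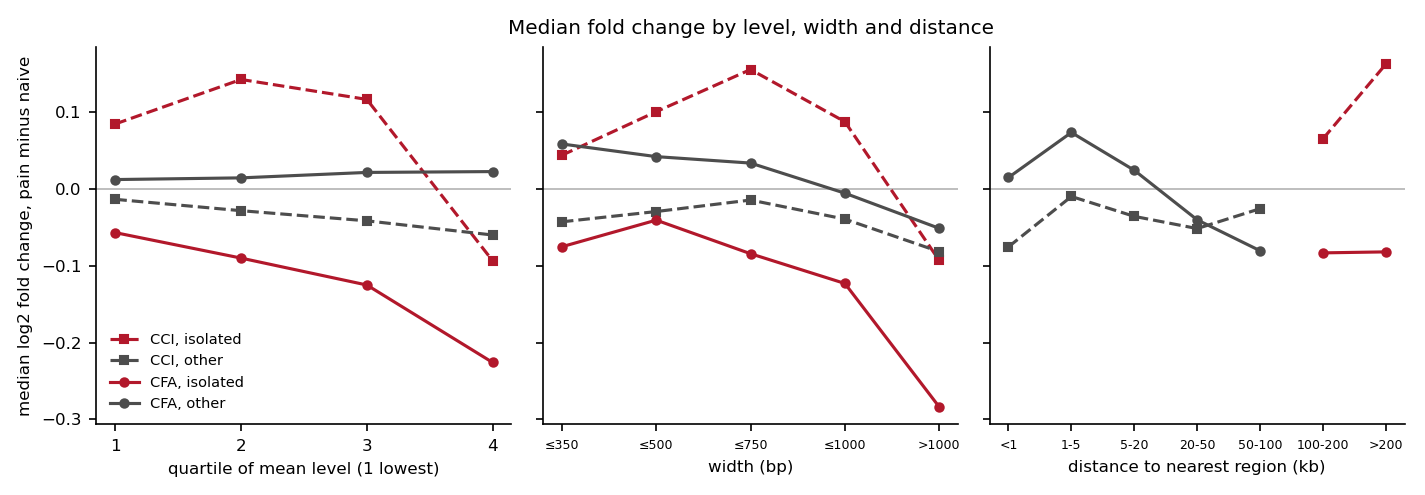
Median log2 fold change (pain minus naïve) of isolated regions (red) and other regions (grey) in CCI (dashed, squares) and CFA (solid, circles), by quartile of mean level, by width and by distance to the nearest region. In CFA the isolated median goes from -0.06 to -0.23 with level and, by width, is smallest at up to 500 bp (-0.04) and largest above 1000 bp (-0.28). In CCI it is positive except in the highest level quartile and the widest class.

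The 14 lost regions had log2 fold changes of -1.17 to -0.58 with a median of -0.77, naïve levels of 4.34 to 8.77, and lay on 8 chromosomes. All of them had their nearest region within 200000 bp, that is 1.19% of the 1178 isolated regions there, beside 0.556% of all regions. Among other regions 1.36% were lost at 50000 to 100000 bp and 0.844% at 20000 to 50000 bp, and 0.259% to 0.446% in the closer classes. The share lost is therefore not particular to isolated regions. In all 14 lost regions the groups did not overlap, but the regions were selected on these same libraries. Of the 14, 4 were below 0.001 in every fit that left out 1 library. In CCI 13 of the 14 lay below 0 and 1 above, with a median log2 fold change of -0.37, where 55.5% of all regions lay below 0. The naïve libraries are the same, so a high naïve value lowers both fold changes.

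At chr1:37043137-37043608 (471 bp), which had the smallest p, naïve was at 5.74, 5.42 and 5.58 and CFA at 4.69 to 4.97 (median 4.81). Its fold change was -0.76 (SE 0.119, limma p = 4.9e-05, adjusted p = 0.0858), with an exact permutation p of 0.0119 on the libraries that selected it. In CCI the same region had 4.81 to 5.22 against 5.47, 5.19 and 5.34 in naïve, and the groups overlapped (log2 fold change -0.25, limma p = 0.147). At chr11:559829-560099 (270 bp) naïve was at 4.3, 4.57 and 4.37 and CFA at 3.18 to 3.73 (median 3.61), a difference of -0.85 (SE 0.144, limma p = 9.47e-05).

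Among the lost regions over 1000 bp were chr5:68716808-68717955 (1147 bp) and chr4:96658694-96659701 (1007 bp). The former stood at 8.24, 8.47 and 8.14 in naïve and at 7.36 to 7.79 (median 7.45) in CFA, a difference of -0.78 (SE 0.131, limma p = 0.000102). The latter stood at 7.38, 7.62 and 7.14 in naïve and at 6.44 to 6.77 (median 6.63) in CFA, a difference of -0.77 (SE 0.134, limma p = 0.000127). In CCI neither was called, with differences of -0.20 and -0.37. The widest lost region, chr11:54404049-54405530 (1481 bp), had the highest naïve level of the 14, 8.71, 8.87 and 8.72, and 8.05 to 8.33 in CFA (median 8.16), with a difference of -0.60 (SE 0.11, limma p = 0.000209). Its groups did not overlap in CCI either (7.69 to 7.95 against 8.13, 8.28 and 8.14), though it was not called there (p = 0.0302).

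The largest decrease, -1.17 (SE 0.214, limma p = 0.000198), belonged to chr4:70716785-70717093 (308 bp), with 4.22, 4.63 and 4.16 in naïve and 2.71 to 3.55 in CFA (median 3.26). In CCI this region was at 3.26 to 4.81 against 4.02, 4.44 and 3.96 in naïve, with overlapping groups (log2 fold change 0.03, SE 0.302).

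The 4 gained regions in CFA were all more than 200000 bp from their nearest region. They were 0.768% of the 521 isolated regions at that distance, beside 0.565% of all regions. Of the 4, 3 were also gained in CCI. Over all regions 321 were gained in CFA, and the study lists more regions gained in both models than these 3. The share of such regions among all those gained in CFA was not computed here. All libraries of both models lay above all naïve libraries at 8 isolated regions (0.471%), beside 0.613% of all regions. Both comparisons use the same naïve libraries, so a low naïve value enters both. The 3 regions lie on chromosomes 13, 11 and 14, and the study lists Olr1065 (an olfactory receptor gene), Epha3 (an ephrin receptor gene) and Cobl (which encodes an actin nucleator) as their nearest annotated genes. By that list each gene is far from its region, well outside it, and a link between gene and region was not tested.

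At the region on chromosome 13, chr13:10820032-10820423, the CFA libraries had 3.62 to 4.43 (median 4.06) against 3.33, 3.33 and 3.01 in naïve, a difference of 0.86 (SE 0.182, limma p = 0.000603). It fell short of 0.001 in all but 1 of the 9 fits without 1 library. On chromosome 11, chr11:1269991-1270529 (538 bp) had 4.09, 3.84 and 3.96 in naïve and 4.73 to 5.61 in CCI (median 5.22), a difference of 1.26 (SE 0.202, limma p = 3.86e-05). Its CFA libraries had 4.5 to 5.11 (median 4.81) against 4.3, 4.01 and 4.16, a difference of 0.69 (SE 0.151, limma p = 0.000821), below 0.001 in 1 of 9 such fits. For this region, too, each pain library was above each naïve library in both tables.

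On chromosome 14, chr14:93768297-93768703 (406 bp) had 3.72, 3.73 and 3.41 in naïve and 4.16 to 4.62 in CCI (median 4.32), a difference of 0.75 (SE 0.17, limma p = 0.000815, below 0.001 in 2 of 9 fits without 1 library). The CFA libraries had 4.3 to 5.18 (median 4.77) against 3.87, 3.92 and 3.6, a difference of 0.996 (SE 0.181, limma p = 0.000186, 8 of 9 fits). The fourth region gained in CFA, chr10:29755270-29755663 (393 bp), had 4.3, 3.83 and 4.16 in naïve and 4.59 to 5.06 (median 4.79) in CFA, a difference of 0.70 (SE 0.151, limma p = 0.000708), and in CCI 4 to 4.51 against 4.09, 3.61 and 3.96 with overlap.

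**Figure D5:**
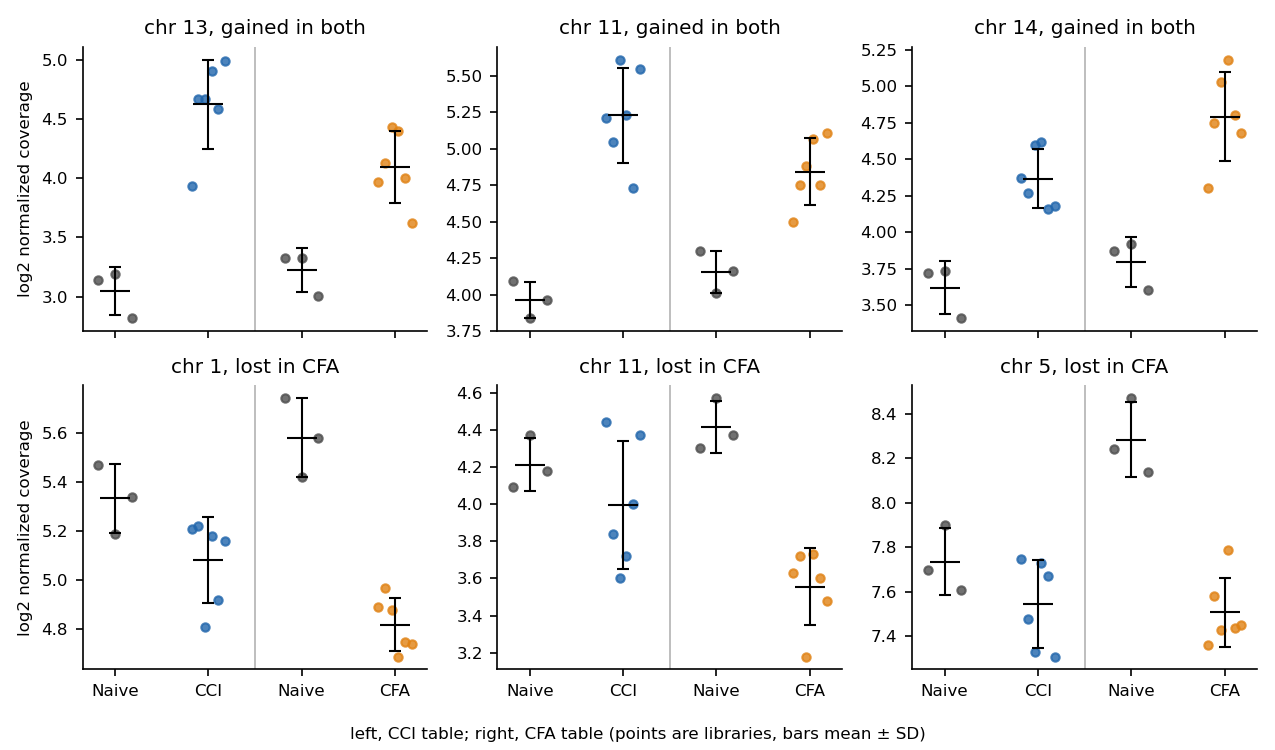
Log2 normalized coverage of 6 isolated regions in every library of the CCI table (left of the line) and the CFA table (right), with the mean ± SD of each group (naïve n = 3, CCI n = 6, CFA n = 6). In the upper row, the 3 regions gained in both models, every pain library lies above every naïve library. In the lower row, 3 regions lost in CFA, every CFA library lies below every naïve library, while the CCI libraries overlap with naïve.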

How the data were processed

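ATAC-seq of rat DRGs (6 CCI, 6 CFA and 3 naïve libraries) was analysed from 2 tables, 1 per pain model with the naïve libraries, and groups were taken from the sample labels. Each library has 1 column, also where it was sequenced in 2 runs. The names of 2 columns for CFA could stand for RNA-seq samples too and are therefore called CFA a and CFA b, without a replicate number. The authors aligned reads to rn6 with Bowtie2, removed reads of mapping quality below 10 and duplicates, extended insertion sites by 75 bp, downsampled, called peaks and kept regions found in at least 50% of the samples of a group. The authors deposited log2 normalized coverage per region. All columns of a table share nearly 1 distribution, and a step that does this is not given in the sources used here. The depth of the ATAC-seq libraries is unknown from these values. For RNA-seq the authors deposited raw counts for each gene, used here for the tissue check only.

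Every region of a table was fitted with limma 3.58.1 in R 4.3.3, two-sided, with Benjamini-Hochberg adjustment over all 56810 regions. For named regions an exact permutation p over 84 splits (smallest 0.0119) was added. Whether animals of a group shared a litter or a day is not given, so p-values measure the spread between these libraries. The fit was tested on simulated data. Medians and shares over isolated regions are descriptions without a test. The isolated regions, the lists and the tests were chosen with earlier results of these data known. Named regions are, per comparison and direction, the 5 with the smallest p below 0.001, those called in both, the 3 with the highest naïve level and the 3 with the largest SD in the pain group per table, the 5 most isolated, those in the study's list of shared regions, and those at the limits. Genes were named only from that list. Sequences, motifs and gene annotation of rn6 were not analysed here. The alternatives tried were other limma settings, normalizations, filters, thresholds, distances, a replicate block, the signal ratio and leaving out libraries. Python 3.11.15 with numpy 2.4.6, pandas 2.3.3 and matplotlib 3.10.9 was used for tables and figures.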

Additional observations from a re-analysis of the deposited data

Results flagged for a closer look

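Among the named isolated regions, 56 groups of 6 libraries were checked for a library whose gap to the next exceeded Dixon's critical value, which chance alone does in about 1 of 20 groups, and 7 were found. In CCI these were replicate 5 at chr1:121377679-121378886 (5.59, group median 6.62), replicate 1 at chr6:17019811-17020420 (3.93, median 5.33) and replicate 3 at chr9:20263964-20264603 (0.732, median 4.54). In CFA they were replicate 4 at chr14:55226210-55226482 (1.89, median 3.8), CFA a at chr2:131377273-131377538 (1.35, median 4.07) and at chr9:108169306-108169647 (3.18, median 4.07), and replicate 3 at chr4:102137883-102138808 (4.69, median 5.5). Each of these libraries was the lowest of its group. Some of the regions had been named for their large SD, which such a value raises.

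At 1 isolated region the pain models lay on opposite sides of naïve in every library. At chr11:7641329-7642702 (1373 bp) CCI had 6.65 to 7.47 (median 6.9) against 6.44, 6.48 and 6.61 in naïve, and CFA had 6.46 to 6.76 (median 6.56) against 6.81, 6.86 and 7.01, with log2 fold changes of 0.465 (limma p = 0.0368) and -0.306 (limma p = 0.0205). Neither passed 0.001, the region was chosen after its values were seen, and the difference between the models was not tested. Such opposite placement, CCI above and CFA below, was found at 0.0589% of isolated regions and 0.0106% of all regions. The reverse, CCI below and CFA above, was found at 0 isolated regions and 0.0282% of all regions. With 1 isolated region, no excess over all regions can be read from these shares.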

How the results depend on the processing

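Counts of isolated regions called in CCI (21, 19 gained and 2 lost) became 43, 39 and 4 with sample quality weights (gained 2.3%, beside 1.42% of all regions). Without regions below the 25th percentile of level they were 11, 10 and 1 (gained 1.11% of the 902 isolated regions left, beside 0.812% of all). They were 1, 0 and 1 with the signal ratio as a covariate and 3, 3 and 0 with 2-run libraries only. At p below 0.01 they were 123, 111 and 12 (gained 6.53% and lost 0.706%, beside 3.71% and 1.89% of all). At an adjusted p below 0.05, which only 9 regions of the whole set passed, they were 0, 0 and 0. With a robust prior 1 was lost (0.0589%, beside 0.151% of all) and with cyclic loess normalization 0 (beside 0.128%). With a distance of 50000 bp, which gives 4421 isolated regions, the CCI counts were 50, 46 and 4. These are 1.04% gained and 0.0905% lost, beside 0.75% and 0.16% of all. With 200000 bp, which leaves 521 isolated regions, the counts were 12, 11 and 1 (2.11% gained and 0.192% lost). In CFA (18, 4 gained and 14 lost) an intensity trend gave 46 with 43 lost (2.53%, beside 2.05% of all). The filter on level gave 1 gained (0.13% of the 768 isolated regions left, beside 0.941% of all) and 16 lost (2.08%, beside 0.967%). At p below 0.01 there were 126, 24 gained (1.41%, beside 3.52%) and 102 lost (6.0%, beside 3.42%). An adjusted p below 0.05 gave 0, 0 and 0, and 0 over all regions. A distance of 50000 bp gave 63, 12 gained (0.271%, beside 0.565%) and 51 lost (1.15%, beside 0.556%). With 200000 bp 4 were gained (0.768%) and 0 lost. Leaving out 1 library gave 8 to 47 calls in CCI (8 to 45 gained, 0 to 3 lost) and 9 to 21 in CFA (1 to 5 gained, 4 to 19 lost). In these fits 0.471% to 2.65% of isolated regions were gained in CCI, beside 0.287% to 1.55% of all regions. In CFA 0.235% to 1.12% of isolated regions were lost, beside 0.181% to 0.547% of all, and 0.0589% to 0.294% gained, beside 0.243% to 0.556%. The gained count in CFA was 1 without naïve replicate 3 and without CFA b. The CCI median fold change moved from 0.09 to -0.0576 with the signal ratio as a covariate, chosen after seeing the data for this value, and to 0.0202 and 0.163 at distances of 50000 and 200000 bp, and the CFA median kept its sign under every alternative run. The naïve level of 4.72 became 4.63 with cyclic loess, 4.9 and 4.6 at 50000 and 200000 bp, and 4.92 in the CFA table. The naïve SD of 0.267 became 0.244 and 0.297 at these distances and 0.212 to 0.228 without 1 naïve library, the CCI SD 0.36 and 0.419, and the CFA SD 0.287 and 0.338. Of 278 values of named regions under alternatives, 202 kept their side of the threshold and 76 no longer passed it with the same sign. Changes in the counts under the weights, the trend and single libraries have a cause that was not tested.

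With the replicate number as a block, 12 isolated regions were called in CCI, 12 gained and 0 lost. The gained share was 0.706% of isolated regions, close to the 0.651% of all regions, and 0.0246% of all regions were lost. CCI and naïve libraries of the same number had deviations that correlated with r = -0.0581, 0.0728 and -0.0288, so the numbers were not taken to pair the libraries, and 1 of 3 CCI replicates correlated best with its own number. No paired analysis was possible for CFA because only replicate 3 is numbered in both groups. The precision of each value is limited by the 3 naïve libraries, and the depth of single libraries cannot be read from normalized values.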
